A study of Mus musculus with 6 samples.

Results

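The Lce3 genes encode small late cornified envelope proteins, and the 6 mouse members Lce3a to Lce3f were taken by gene symbol from the deposited expression table, where all 6 were present among 19309 genes. The samples were 6 libraries of poly(A)-selected RNA from cheek skin, 3 per group, taken from 3 mice of the C57BL/6 strain at an age of 6 to 8 weeks. In the AEW group (the right cheek) a shaved area was rubbed with an equal mixture of acetone and ether for 30 s and then with distilled water for 30 s. In the vehicle group (the left cheek of the same mice) the skin was rubbed with distilled water for 60 s. Both treatments ran for 12 days in healthy mice with no transgene or mutant allele named in the labels, and side of the face and treatment cannot be told apart because AEW was on the right in every mouse. Library totals ran from 18449145 to 19506462 estimated counts, as single reads of 50 bases.

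Late cornified envelope proteins are cross-linked by transglutaminases beneath the plasma membrane of keratinocytes as these cells turn into the dead, flattened corneocytes of the skin surface. The Lce1 group is made in intact epidermis, whereas the LCE3 group is known in human skin for low levels in intact epidermis and for induction after barrier damage and in psoriasis. In humans, a common deletion of LCE3B and LCE3C is associated with psoriasis, and human LCE3 proteins can kill bacteria in culture. Both groups lie in the epidermal differentiation complex, a chromosome region filled with genes of the cornified layer, on mouse chromosome 3.

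Because the 6 members changed in the same direction, the 150 bases before their annotated start sites are shown, written 5′ to 3′ on the strand of the gene, from RefSeq on the GRCm38.p6 build. Capitals mark the TATA-like letters ATAAAA and, where present, the longer run CAAGGATAAAAG that contains them.
Lce3a: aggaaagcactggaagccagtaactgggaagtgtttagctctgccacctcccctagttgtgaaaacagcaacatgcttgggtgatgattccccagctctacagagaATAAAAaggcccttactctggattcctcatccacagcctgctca
Lce3b: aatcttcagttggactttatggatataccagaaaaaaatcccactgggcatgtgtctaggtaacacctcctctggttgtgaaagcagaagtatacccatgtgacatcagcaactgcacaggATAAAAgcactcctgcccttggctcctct
Lce3c: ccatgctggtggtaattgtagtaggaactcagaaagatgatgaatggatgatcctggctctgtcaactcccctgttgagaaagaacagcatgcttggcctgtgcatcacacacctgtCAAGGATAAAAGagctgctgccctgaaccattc
Lce3d: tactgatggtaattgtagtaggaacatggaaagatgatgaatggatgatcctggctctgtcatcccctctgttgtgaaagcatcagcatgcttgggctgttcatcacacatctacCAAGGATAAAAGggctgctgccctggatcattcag
Lce3e: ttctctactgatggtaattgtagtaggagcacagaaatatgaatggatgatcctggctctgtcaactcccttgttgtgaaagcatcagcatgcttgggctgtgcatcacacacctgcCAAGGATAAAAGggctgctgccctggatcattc
Lce3f: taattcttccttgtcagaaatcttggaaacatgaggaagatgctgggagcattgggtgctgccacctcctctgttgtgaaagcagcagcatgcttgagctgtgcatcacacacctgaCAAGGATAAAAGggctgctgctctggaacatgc
The windows are chr3:92926231-92926380 on the minus strand for Lce3a and, on the plus strand, chr3:92932829-92932978 for Lce3b, chr3:92944336-92944485 for Lce3c, chr3:92957240-92957389 for Lce3d, chr3:92966911-92967060 for Lce3e and chr3:92992067-92992216 for Lce3f. All 6 hold ATAAAA on the gene's strand, against 6.03% of 32851 promoter windows of the same length. Its first base lies 44 bases before the start of Lce3a and 28 to 30 bases before the starts of the other members. CAAGGATAAAAG, taken as a run shared by the windows of Lce3c, Lce3d, Lce3e and Lce3f, is in 5 of the 32851 windows overall (0.0152%). ATAAAA is likewise the run that all 6 share. Runs taken from the members are present in them by that choice, so the shares of all windows are no independent background. Lce3d and Lce3e are the most alike over these bases, with 87.8% identity in a global alignment, followed by Lce3c and Lce3e at 86.9% and Lce3c and Lce3d at 84.3%. Lce3a and Lce3b are the least alike, at 54.9%.

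Other motifs were searched on both strands of the same windows. No member held the AP-1 letters TGANTCA (4.24% of all windows), the STAT letters TTCNNNGAA (4.09%), the C/EBP-like letters TTNNGCAA (5.46%) or the Grainyhead-like letters AACNNGTT (1.98%). The KLF-like letters CACCC were in the windows of Lce3a and Lce3f (37.4% of all windows). These matches describe letters in a short window and say nothing of binding.

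All 6 Lce3 genes rose in AEW skin, by 12.6 to 76.1 fold in the edgeR fit. The levels that follow are deposited TPM, an abundance that allows for gene length, with values in the order of mice 1, 2 and 3. Lce3d, the member of highest mean TPM in AEW skin though not in mouse 1, had 214, 596 and 323 TPM there, against 7.85, 11.83 and 8.86 TPM in vehicle skin. For Lce3c, the most abundant member in vehicle skin, AEW skin gave 232, 499 and 312 TPM and vehicle skin 13.2, 45.2 and 22.8 TPM. Both genes were an order of magnitude apart between the cheeks, and the AEW and vehicle libraries did not overlap.

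Lce3e stood at 83.2, 222 and 129 TPM in AEW skin, against 3.68, 4.87 and 3.70 TPM in vehicle skin. Lce3f had 26.9, 119 and 65.7 TPM in AEW skin and 1.26, 1.90 and 1.10 TPM in vehicle skin. These are the last of the block in chromosome order, and both were at a few TPM or less in every vehicle library.

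The least abundant members were Lce3b and Lce3a, at the other end of the block. Lce3b had 22.4, 97.9 and 58.1 TPM in AEW skin, against 0.60, 1.07 and 0.60 TPM in vehicle skin. Lce3a had 4.34, 25.7 and 21.0 TPM in AEW skin, against 0.22, 0 and 0.67 TPM in vehicle skin, where mouse 2 was listed at 0. The vehicle values of Lce3a rest on 1, 0 and 4 rounded counts and those of Lce3b on 4, 6 and 3, so counting error is large for both.

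In all 6 members the lowest AEW library was above the highest vehicle library, as it was for 17.4% of all tested genes in CPM (counts scaled for library size and composition). Within the AEW group, mouse 2 was the highest and mouse 1 the lowest for 6 of 6 members. Mouse 2 was also the highest vehicle library for 5 of the 6, the exception being Lce3a. The spread within AEW skin was therefore wide, with the summed Lce3 level at 583, 1559 and 909 TPM in AEW skin, against 26.8, 64.9 and 37.8 TPM in vehicle skin.

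**Figure D1:**
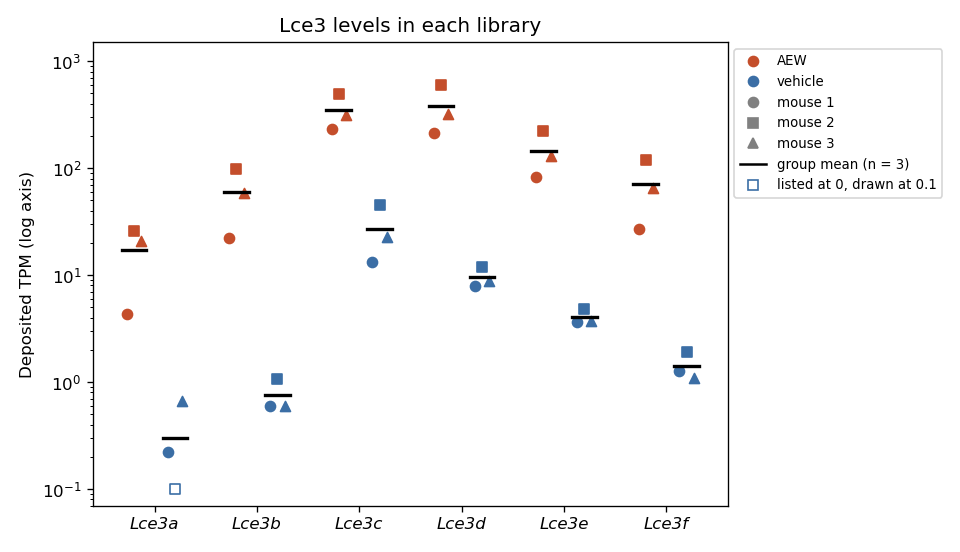
Deposited TPM of each Lce3 gene in each library on a log axis, with AEW in red, vehicle in blue, mice as symbols and a black line for the group mean (n = 3). The AEW points of each gene lie above its vehicle points, and Lce3a in the vehicle skin of mouse 2, listed at 0, is drawn open at 0.1.

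The edgeR quasi-likelihood test over 15109 genes placed 6 of 6 members among the genes higher in AEW skin (threshold 0.05 on the adjusted p), which make up 4.85% of all tested genes, and 0 among the lower ones, which make up 6.8%. Lce3b had the greatest log2 fold change, 6.25 ± 0.72 (SE, n = 3 per group, adjusted p = 0.00845), and Lce3c the smallest, 3.65 ± 0.50 (adjusted p = 0.0119). In between were Lce3a at 5.72 ± 1.01 (adjusted p = 0.0204), Lce3f at 5.62 ± 0.68 (adjusted p = 0.00905), Lce3d at 5.28 ± 0.47 (adjusted p = 0.00478) and Lce3e at 5.10 ± 0.46 (adjusted p = 0.00478). Their median was 5.45, against 0.01 over all tested genes. By the size of this rise Lce3b ranked 6th, Lce3a 10th, Lce3f 12th, Lce3d 16th, Lce3e 21st and Lce3c 42nd of the 15109 genes. Rounded vehicle counts were 1, 0 and 4 for Lce3a, 4, 6 and 3 for Lce3b and 8, 12 and 7 for Lce3f. These members passed the low-count filter, set at a minimum count of 10, through AEW skin. Their high places in this ranking are therefore partly built in, and no rank without that filter is given. The ranks carry no intervals, and the log2 fold change of Lce3a was 3.53 with limma on log2(TPM + 1).

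All 6 members were also called with the mouse as a block, where 1.99% of tested genes were called higher, at adjusted p of 0.00987 for Lce3c to 0.0351 for Lce3a. They were called as well with RLE size factors (4.96% of genes called higher), with no low-count filter (3.51%), with DESeq2 (9.02%) and with limma on log2(TPM + 1) (4.41%) or log2(TPM + 0.1) (4.65%). When 1 library was left out, all 6 were called without AEW replicate 1 (7.83%), AEW replicate 3 (2.27%) or vehicle replicate 2 (2.46%), and 5 without AEW replicate 2 (1.14%), where Lce3a had an adjusted p of 0.0538. Without vehicle replicate 1 the call was kept by 3 members, Lce3c, Lce3d and Lce3e, in a fit that called 0.216% of genes higher, and Lce3b, Lce3f and Lce3a had adjusted p of 0.0505, 0.0531 and 0.0878. Without vehicle replicate 3 it was kept by 2, Lce3d and Lce3e (0.15% of genes), with adjusted p of 0.0518, 0.0552, 0.0705 and 0.0762 for Lce3b, Lce3f, Lce3c and Lce3a. Lce3a had a log2 fold change of 7.26 in that fit, which leaves its vehicle group with 1 and 0 counts.

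The members differed in how far they rose within each mouse. Lce3c had the lowest AEW to vehicle ratio of scaled counts in every mouse, at 16.0, 11.4 and 12.9 in mice 1, 2 and 3, with 95% exact binomial intervals of 12.7 to 20.3, 10.1 to 13.0 and 10.8 to 15.5. Lce3d had ratios of 25.2 (18.8 to 34.6), 52.4 (41.2 to 67.6) and 33.9 (25.7 to 45.8) in the same mice. The counting intervals of these genes did not overlap in mice 2 and 3 but did in mouse 1.

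Lce3b gave 30.5, 97.7 and 104, on vehicle counts of 4, 6 and 3, with an interval in mouse 3 of 35.2 to 506. The ratios of Lce3e were 20.5, 46.7 and 32.8, and those of Lce3f 20.3, 66.2 and 56.2. Lce3a had a ratio of 22.8 in mouse 1 (3.72 to 934, on 1 vehicle count) and 27.4 in mouse 3 (10.4 to 102). In mouse 2 it was 50.2-fold higher when 3 counts were put in place of the vehicle count of 0. The lower limit of the exact interval there was 40.4. Summed over the 6 members the ratio was alike between mice, at 19.9 (17.0 to 23.4), 25.1 (22.7 to 27.9) and 22.8 (19.9 to 26.2). These intervals cover counting error only.

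**Figure D2:**
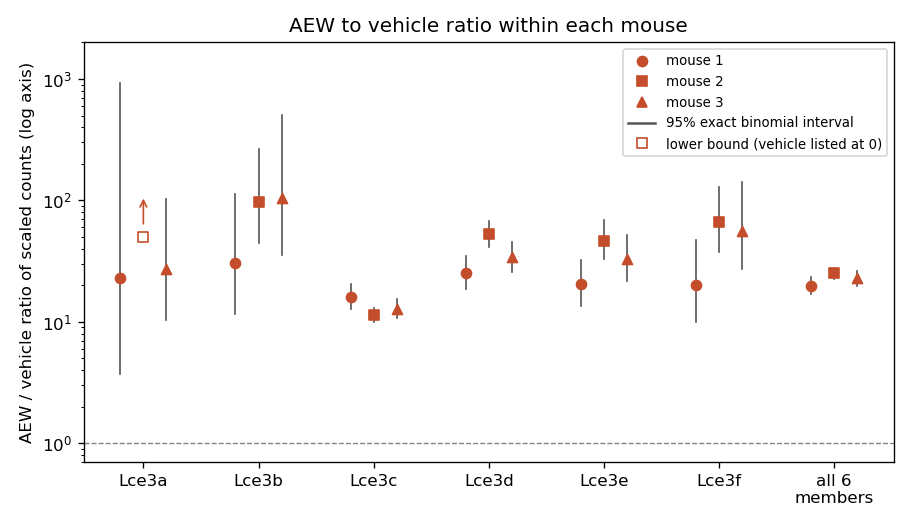
Ratio of scaled counts, AEW over vehicle, within each mouse for each Lce3 gene and for the sum of the 6, on a log axis with 95% exact binomial intervals. Lce3c lies lowest in each mouse at 11.4 to 16.0. The open symbol of Lce3a in mouse 2, at 50.2, puts 3 counts in place of a vehicle count of 0, and the exact lower limit there is 40.4.

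The share of each member in the summed Lce3 TPM is given for each cheek as a description. Lce3c supplied 39.8%, 32.0% and 34.3% of the summed Lce3 TPM in AEW skin of mice 1, 2 and 3, against 49.2%, 69.7% and 60.4% in vehicle skin. Lce3d supplied 36.8%, 38.2% and 35.6% in AEW skin, against 29.3%, 18.2% and 23.5% in vehicle skin. Lce3e supplied 14.3%, 14.2% and 14.2% in AEW skin, against 13.7%, 7.51% and 9.80% in vehicle skin. Neither group overlapped the other for any of these 3 shares, nor for Lce3b, at 3.85% to 6.39% in AEW and 1.59% to 2.24% in vehicle skin. The shares of Lce3f (4.61% to 7.63% against 2.91% to 4.70%) and Lce3a (0.745% to 2.31% against 0% to 1.78%) did overlap. Shares of 1 sum depend on each other and on how reads shared by members were divided, and they were not tested. No share over all genes stands beside these overlaps, so how many members did not overlap is not a result about the members.

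The order of mean levels in AEW skin was Lce3d, Lce3c, Lce3e, Lce3f, Lce3b and Lce3a, and in vehicle skin Lce3c, Lce3d, Lce3e, Lce3f, Lce3b and Lce3a. In AEW skin Lce3d and Lce3c were not separated beyond the spread of the libraries, with 378 ± 197 and 347 ± 137 TPM (SD, n = 3), and Lce3d led in 2 of 3 libraries. The ranges of the neighbours Lce3e and Lce3f, Lce3f and Lce3b, and Lce3b and Lce3a overlapped as well, though each of these pairs kept its order in all 3 AEW libraries. In vehicle skin the last neighbours in the order, Lce3b and Lce3a, overlapped, while Lce3c (27.1 ± 16.4 TPM) and Lce3d (9.51 ± 2.07 TPM) did not.

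The Lce3c to Lce3d ratio of TPM was 1.08, 0.836 and 0.966 in AEW skin, against 1.68, 3.82 and 2.58 in vehicle skin. It was lower in AEW skin by 1.42 on the log2 scale. The exact permutation test over 6 libraries gave a two-sided p of 0.1, the smallest that 3 against 3 allows. That test took the libraries as independent and did not use the pairing of cheeks by mouse. Among the 10 pairs that can be formed without Lce3a, none passed after Benjamini-Hochberg adjustment (smallest adjusted p = 0.125 by exact permutation), in a design that cannot reach 0.05. The Lce3d to Lce3e ratio ranged from 2.51 to 2.69 in AEW skin and from 2.13 to 2.43 in vehicle skin.

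**Figure D3:**
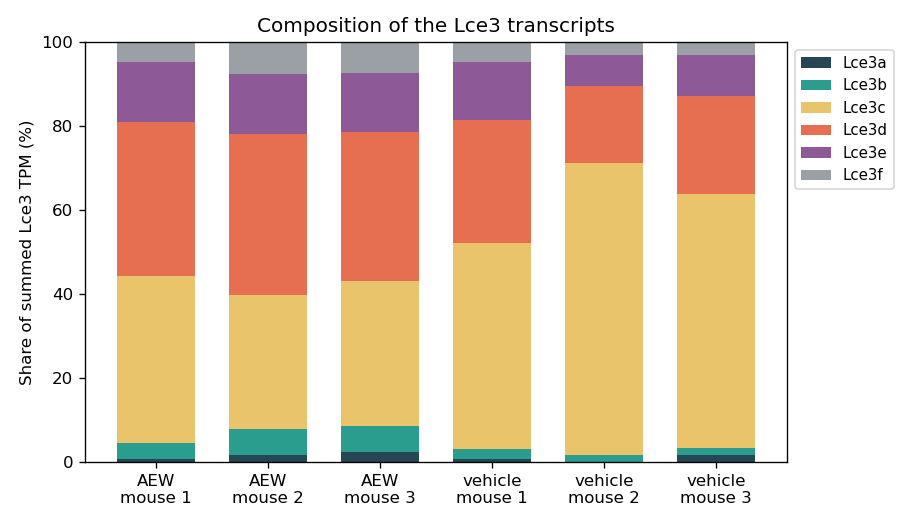
Share of the summed Lce3 TPM held by each member in each library, in percent, with the AEW libraries on the left and the vehicle libraries on the right. Lce3c takes 32.0% to 39.8% of the bar in AEW skin and 49.2% to 69.7% in vehicle skin.

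How far members can be told apart by reads of 50 bases was measured on the GENCODE M21 transcripts. Of the distinct 50-base windows of a member, 49.3% in Lce3d, 48.0% in Lce3f, 43.7% in Lce3e, 35.7% in Lce3c, 19.0% in Lce3a and 12.1% in Lce3b also occurred in another gene, and each of those genes was an Lce3 member. The deposited counts of the members are fractional, and no source used here says how shared reads were divided. Values of single members, and the shares and ratios between them, are uncertain to that extent, whereas their summed count is not affected by reads exchanged among members. Summed TPM can change with such an exchange, since the member transcripts run from 491 to 611 bases. Whether any shared reads were left out of the counts, which would lower the sum too, is likewise not stated.

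The Lce3 block was set against its neighbours in chromosome order, taking the 10 nearest protein-coding genes on each side from the RefSeq gene order of GRCm38.p6, a choice made after values were seen. On the Lce3a side the nearest were 2310050C09Rik and Lce1l, which had log2 fold changes of -0.23 ± 0.18 and -0.53 ± 0.18 (SE, adjusted p = 0.441 and 0.103). On the Lce3f side the nearest were Crct1, at 0.29 ± 0.25 (adjusted p = 0.476), and Lce1m, which fell, at -1.12 ± 0.15 (adjusted p = 0.011). Of the 19 neighbours tested, 3 were higher (Lce1g, Flg and Rptn) and 1 was lower (Lce1m), with a median log2 fold change of 0.52. Over all tested genes, 4.85% were higher and 6.8% lower. The greatest rise among them was 2.43 for Rptn, the repetin gene, below the 3.65 of Lce3c.

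**Figure D4:**
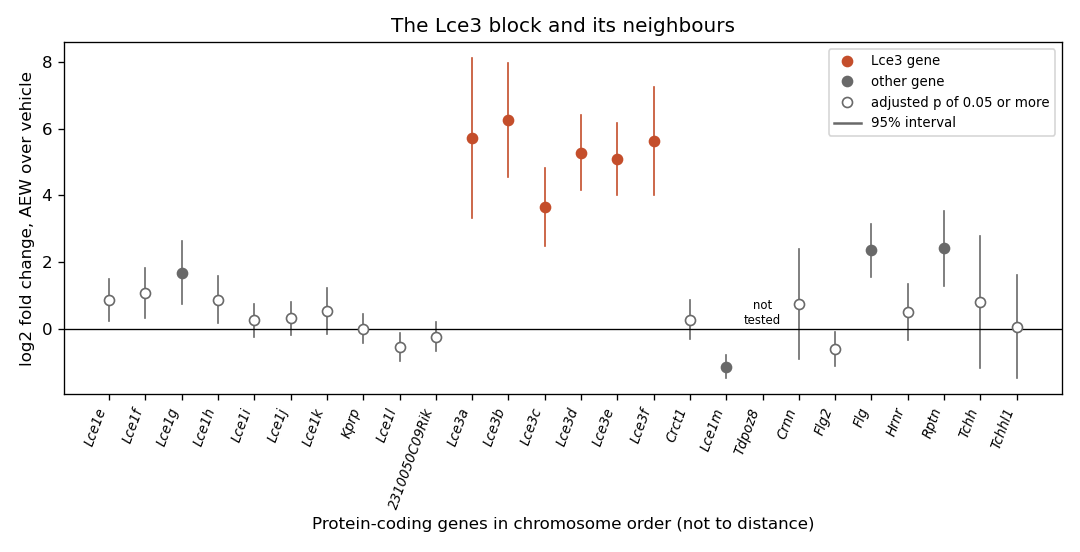
Log2 fold change, AEW over vehicle, with 95% intervals, for the Lce3 genes in red and the 10 protein-coding genes on each side in grey, in chromosome order and not to distance. Filled points passed an adjusted p under 0.05, and the 6 Lce3 genes lie between 3.65 and 6.25 while the neighbours lie between -1.12 and 2.43.

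Late cornified envelope genes outside Lce3, a list of Lce1 and Lce6a genes made in intact epidermis, had 15 tested members, of which 2 rose and 1 fell, with a median log2 fold change of 0.28. The shares of all tested genes were 4.85% higher and 6.8% lower, here and for the lists that follow. Lce1g, named after its values were seen, rose to 403 ± 69.5 TPM in AEW skin, against 121 ± 74.4 TPM in vehicle skin (SD, n = 3), which edgeR put at 1.70 ± 0.40 on the log2 scale (SE) with an adjusted p of 0.0407. Its call was lost without AEW mouse 2 or 3 or vehicle mouse 1 or 3 (adjusted p = 0.0979, 0.0833, 0.115 and 0.16 by edgeR). Lce1m fell to 614 ± 81.5 CPM in AEW skin, against 1331 ± 164 CPM in vehicle skin (SD, n = 3), and Lce6a rose to 205 ± 40.0 CPM, against 102 ± 28.8 CPM (adjusted p = 0.0348). Lce1a1, among the most abundant, had a log2 fold change of 0.05 ± 0.18 (adjusted p = 0.861). Leaving out AEW replicate 2, AEW replicate 3, vehicle replicate 1 or vehicle replicate 3 left 0 higher, leaving out vehicle replicate 2 gave 5 higher, and leaving out vehicle replicate 3 left 0 lower.

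Lce3 transcripts were thus a larger part of all late cornified envelope transcripts in AEW skin. They made up 6.56%, 15.2% and 8.93% of the summed Lce TPM in the AEW skin of mice 1, 2 and 3, against 0.398%, 0.595% and 0.482% in vehicle skin. The summed Lce TPM itself overlapped between groups, at 9784 ± 780 TPM in AEW skin and 8488 ± 2167 TPM in vehicle skin (SD, n = 3).

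Small proline-rich proteins, cross-linked precursors of the same envelope, had 8 of 11 tested members higher and 0 lower, with a median log2 fold change of 4.82. Sprr1b rose to 506 ± 284 CPM in AEW skin, against 17.9 ± 3.29 CPM in vehicle skin (SD, n = 3, adjusted p = 0.00582), and Sprr2d rose by a log2 fold change of 5.58 ± 0.84 (adjusted p = 0.0142). Sprr1a and Sprr4, the most abundant per length, stood at 1.498 ± 0.47 and 1.92 ± 0.68 on the log2 scale (adjusted p = 0.0796 and 0.109). Leaving out vehicle replicate 1 or vehicle replicate 3 left 2 and 1 higher, and leaving out AEW replicate 2 gave 1 lower.

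Scaffold and cross-linking genes of the envelope included 5 higher and 0 lower of 17 tested (4.85% and 6.8% of all tested genes), with a median of 0.39. Casp14, a caspase of cornification, rose by 2.17 ± 0.28 and Tgm3, an epidermal transglutaminase, by 2.00 ± 0.28 on the log2 scale (SE, adjusted p = 0.0106 and 0.0123). Krtdap and Sbsn, secreted proteins of suprabasal keratinocytes and the most abundant of the list, had log2 fold changes of 0.16 ± 0.19 and 0.04 ± 0.20 (adjusted p = 0.608 and 0.908). The higher count was 9 without AEW replicate 1, 3 without AEW replicate 2, AEW replicate 3 or vehicle replicate 2, and 0 without vehicle replicate 1 or 3. In the filaggrin family 2 of 7 tested rose, Flg by 2.37 ± 0.34 (adjusted p = 0.0125) and Rptn by 2.43 ± 0.48 (adjusted p = 0.0267), while Flg2 had a log2 fold change of -0.58 ± 0.22 (adjusted p = 0.124). That count was 0 without vehicle replicate 1 or 3 and 1 without vehicle replicate 2.

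Of the signals and transcription factors reported to act on late envelope genes, 28 were tested, 5 rose and 0 fell (4.85% and 6.8% of all tested genes), with a median of 0.37. Ovol1, a transcription repressor of epidermal differentiation, rose to 103 ± 17.96 CPM in AEW skin, against 48.2 ± 10.6 CPM in vehicle skin (SD, n = 3, adjusted p = 0.0206), and Zfp750, a transcription factor of terminal differentiation, rose by 0.57 ± 0.13 (adjusted p = 0.0393). The other members that rose, named after their values were seen, were Il1f6 and Il1f8, which encode interleukin 36 cytokines, and the AP-1 gene Fosl2. Cebpa and Cebpb, the most abundant, had log2 fold changes of -0.08 ± 0.09 and 0.38 ± 0.14 (adjusted p = 0.597 and 0.119). Il17a, Il17f, Il22 and Ifng, cytokine genes of lymphocytes, were too low to test. The higher count was 12 without AEW replicate 1, 1 without vehicle replicate 2 and 0 without each of the other libraries.

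Genes with the profile closest to the mean Lce3 profile were ranked by Pearson correlation of log2 CPM over the 6 libraries, among 13749 genes outside the family. Ppa1, an inorganic pyrophosphatase gene, came first (r = 0.9987), followed by Lpo, the lactoperoxidase gene (0.9974), Eaf1, of a transcription elongation factor (0.9967), Nrg1, of an EGF family ligand (0.9966), and Tcf23, of a helix-loop-helix protein (0.9964). Their rises differed widely in size, with log2 fold changes of 0.47 for Ppa1 and Eaf1, 2.36 for Nrg1, 4.14 for Tcf23 and 5.10 for Lpo. By edgeR none of them kept its call without vehicle replicate 1 (adjusted p of 0.0506 to 0.0813) or vehicle replicate 3 (0.054 to 0.112). Those fits called 0.216% and 0.15% of genes higher. Ppa1 and Eaf1 also lost the call without AEW replicate 2 (adjusted p = 0.0596 and 0.0669 by edgeR). Vehicle means were only 0.19 TPM for Nrg1, 0.09 TPM for Tcf23 and 0.347 TPM for Lpo, so the sizes of these rises are uncertain. With limma on log2(TPM + 1) the log2 fold changes of Nrg1, Tcf23 and Lpo were 0.92, 1.18 and 3.19. Between members the correlation ran from 0.909 for Lce3a and Lce3c to 0.9997 for Lce3d and Lce3e and for Lce3b and Lce3f. The 6 libraries form 2 treatment groups and share mice, so these values are a description.

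The tissue held the markers of skin in every library, and its makeup also differed between the cheeks. In bulk tissue, more cells of a type and more RNA per cell cannot be told apart. Counts of called markers, here and below, stand beside 4.85% of all tested genes higher and 6.8% lower. Summed skeletal muscle markers, with 6 of 7 lower and 0 higher, ranged from 9354 to 13149 CPM in AEW skin and from 22583 to 33029 CPM in vehicle skin, and stress keratinocyte markers, with 6 of 6 higher, ranged from 3063 to 6528 CPM in AEW skin and from 1004 to 1248 CPM in vehicle skin. Spinous keratinocyte markers overlapped, at 11441 to 21516 CPM in AEW skin and 9280 to 12041 CPM in vehicle skin, with 1 of 7 higher, as did granular markers, at 4656 to 8394 CPM in AEW skin and 3997 to 5397 CPM in vehicle skin, with 4 of 8 higher. Basal markers, with 1 of 7 higher, ranged from 11453 to 13149 CPM in AEW skin and from 7094 to 11280 CPM in vehicle skin, without overlap.

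Per 1000 CPM of spinous markers, summed Lce3 stood at 15.4, 24.0 and 15.5 CPM in AEW skin of mice 1, 2 and 3, against 0.954, 1.71 and 1.16 CPM in vehicle skin. The ratio of the group means was 14.4 on this scale, 15.2 per granular marker level, 17.7 per basal marker level and 5.75 per stress keratinocyte marker level, beside 23.3 with no marker. Marker lists hold genes that themselves changed, with 4 of 8 granular and 6 of 6 stress keratinocyte markers higher. These ratios therefore cannot separate tissue makeup from RNA per cell, and the part of makeup in the size of the rise was not tested.

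Among other cell types, neutrophil markers had 3 of 4 tested members higher, with S100a8 and S100a9, which stressed keratinocytes also express, in both lists. Their summed level was 16.0 to 79.9 CPM in AEW skin and 8.12 to 12.7 CPM in vehicle skin, and Ly6g, Mpo and Retnlg were too low to test. T cell markers, with 1 of 5 lower, were at 23.1 to 29.5 CPM in AEW skin and 33.5 to 35.2 CPM in vehicle skin. Sebocyte markers, with 0 of 6 called, were at 6586 to 7373 CPM in AEW skin and 7733 to 11964 CPM in vehicle skin. Hair follicle, macrophage and mast cell markers had no called member, fibroblast markers had 1 of 6 higher, and the summed levels of these 4 lists overlapped between the groups. The hair follicle markers spread widely within AEW skin, at 81.5 to 2308 CPM, against 353 to 401 CPM in vehicle skin, and their log2 fold changes had a median of 1.56 without any call. With the mouse as a block 2 of the stress keratinocyte markers were higher, 7 of the muscle markers lower and 1 neutrophil marker higher, and no T cell or fibroblast marker was called. That fit called 1.99% of all tested genes higher and 588 of 15109 lower.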

How the data were processed

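Per the labels' protocols, RNA of 6 cheek skin samples was poly(A) selected and read as single ends of 50 bases. The submitters' processing notes name HISAT and GRCm39, and no source used here names the counting tool, the annotation or the strand setting. Per the file headers, the authors deposited estimated counts of reads (not whole for 53.9% to 57.2% of genes), FPKM and TPM for 19309 genes. Replicate numbers are mouse numbers.

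Counts were rounded and kept by filterByExpr at a minimum count of 10 (15109 genes, at least 99.9% of each library), and scaled with TMM. Testing used glmQLFTest of edgeR 4.0.16 (R 4.3.3), a quasi-likelihood test, with group alone, Benjamini-Hochberg adjusted over all tested genes at 0.05. SE is the log2 fold change divided by the root of F. Alternatives were the mouse as a block, RLE scaling, DESeq2 1.42.0, no filter, limma 3.58.1 on log2(TPM + 1) and log2(TPM + 0.1), and leaving out each library. Over all tested genes, deviations from group means correlated at -0.244, -0.165 and -0.246 within mice, whose pairing comes from the labels. The group fit can therefore understate the spread of genes at large. For each Lce3 member the SE was smaller with the mouse as a block, at 0.13 for Lce3c to 0.83 for Lce3a. Their adjusted p was larger with the block for all but Lce3c.

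Members and lists were chosen with earlier results of these data known. Named genes are the members, the 2 genes of smallest p and the 2 of highest mean TPM in each envelope or signal list, and the 5 genes closest in profile with an edgeR average log2 CPM of 1 or more, a floor set on the mean level of all libraries, which a gene low in vehicle skin can pass through AEW skin. Promoter sequences are from RefSeq (GRCm38.p6), matched by symbol for 6 of 6 members, and carry coordinates of that build, not the authors'. FPKM was not used for any result.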

Additional observations from a re-analysis of the deposited data

How the results depend on the processing

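Each of the 6 members stayed higher and called with the mouse as a replicate block, RLE size factors, DESeq2, no low-count filter and limma on TPM with either pseudocount, with log2 fold changes of 3.53 to 5.82 for Lce3a, 4.89 to 6.30 for Lce3b, 3.65 to 3.78 for Lce3c, 5.06 to 5.29 for Lce3d, 4.74 to 5.11 for Lce3e and 4.66 to 5.65 for Lce3f. Leaving out 1 library gave 2 to 6 members higher, and 0 lower, with no sign change.

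Over all genes, 733 were higher and 1027 lower. With the replicate block these were 300 and 588, with DESeq2 1362 higher, with limma on log2(TPM + 1) or log2(TPM + 0.1) 666 lower, and leaving out 1 library 23 to 1197 higher and 117 to 1041 lower. With DESeq2 the Lce genes outside Lce3 had 5 higher and 2 lower, the filaggrin family 1 lower and the signals 10 higher. With limma on log2(TPM + 1) the signals had 3 higher. Leaving out 1 library gave 0 to 5 higher and 0 to 1 lower for the Lce genes outside Lce3, 1 to 10 higher and 0 to 1 lower for the small proline-rich proteins, 0 to 9 higher for the scaffold, 0 to 3 higher for the filaggrin family and 0 to 12 higher for the signals. The replicate block moved the count of no envelope or signal list by more than 1.5 times (its counts of cell type markers stand beside those markers) and ended no call of a gene named with its fold change, and the cause of these changes was not tested. Some of these calls were close to the threshold in the edgeR block fit, with adjusted p of 0.0498 for Ppa1, 0.0483 for Rptn, 0.0479 for Zfp750 and 0.0459 for Eaf1. Genes that passed no test and changed sign when 1 library was left out were Kprp (-0.13 to 0.15), Krtdap (-0.064 to 0.30), Lce1a1 (-0.075 to 0.25) and Sbsn (-0.074 to 0.23). Depth limits Lce3a and Lce3b, whose vehicle libraries hold 0 to 6 counts each.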
